A study of Mus musculus with 26 samples.

Results

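Nron, Gpr180, Pgpep1, Myo1f, Stx4a, Neil1 and Ndrg3 are 7 genes with low values in double positive (DP) T-cell precursors taken from the arch of the aorta. They were selected on their measured levels in the arch samples, so every difference that involves arch is given for them as a description, with no p. Counts of calls in those contrasts are printed beside the share of all genes called, and nothing is read from them. The deposited table lists 13765 genes, and all 7 were among the 9106 genes that passed the filter on low values. Nron, Gpr180, Pgpep1, Myo1f and Stx4a had no reads, or next to none, in most arch samples. Ndrg3 was reduced and not lost. Neil1 departed from the working name of the group, "lost or reduced in aortic arch": its arch level lay below that of adipose tissue but not below that of thymus.

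The series compared DP cells residing in 3 tissues of female C57BL/6J mice aged 8 weeks: thymus, mediastinal adipose tissue, and aortic arch. Every sample joined the tissue of 5 mice. The protocols in the labels name digestion for arches and adipose tissue and do not name it for thymi. The sort took 400 viable CD4+CD8b+TCR- cells at a time, and polyadenylated RNA of 200 cells was amplified for 18 cycles per library. All groups shared this strain, sex and age, and the labels name no treatment or engineered allele. The 26 libraries came from 4 pools per tissue, and the pool is the replicate (n = 4). Adipose pool 2 held 1 library, and every other pool held 2 or 3. The labels do not say whether pools with the same number in different tissues came from the same mice.

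The pools held between 11577253 and 34599519 recovered reads. Of the sort and lineage genes, all 15 DP thymocyte markers on the list (Cd4, Cd8a, Cd8b1, Rag1, Ptcra and others) were detected in each tissue. Their summed level was 26360 to 29800 CPM (reads scaled to a common total per pool) in thymus pools, 10220 to 18350 in adipose pools and 11690 to 13030 in arch pools. Genes that tissue digestion is known to induce (Fos, Jun, Hspa1a and others) summed to 856 to 1478 CPM in thymus, 2506 to 6105 in adipose pools and 12620 to 20330 in arch pools. Markers of several other cell types were spread unevenly over the pools. The sum of 10 fibroblast markers was 88.9 to 298 CPM in thymus (5 of them at 0, among them Pdgfra and Lum), 59.1 to 384 in adipose pools and 125 to 6524 in arch, with the highest value in arch pool 4. Smooth muscle markers (6 in the table) summed to 0 to 3.31, 0.0372 to 9.93 and 0.560 to 1573 CPM, and macrophage markers (9 in the table, Csf1r and C1qa among 5 at 0 in thymus) to 0.0870 to 10, 0 to 243 and 0.0700 to 1024 CPM. Both were highest in arch pool 2. B cell markers (7 in the table, Ms4a1 among 5 at 0 in thymus) summed to 71.0 to 214, 32.8 to 1758 and 2.80 to 427 CPM, highest in adipose pool 1. Adipocyte markers summed to 0 to 12.83, 0 to 182.3 and 0 to 10.45 CPM, and endothelial markers to 27.66 to 108.4, 65.34 to 449.7 and 65.63 to 122.9 CPM. Both were highest in adipose pool 1. Neutrophil markers summed to 9.913 to 13.51, 7.876 to 15 and 11.65 to 53.99 CPM. NK and innate lymphoid cell markers summed to 186.5 to 337.6, 112.8 to 201.1 and 74.52 to 223.6 CPM. The part of other cell types in the results below was not tested.

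DP cells are the stage of T-cell development at which receptor alpha chains are rearranged and cells are selected. The 7 genes belong to no single pathway. Nron is a long noncoding RNA that forms, with scaffold proteins, kinases and nuclear transport factors, a complex that holds the transcription factor NFAT in the cytoplasm until calcineurin releases it. Gpr180 encodes a membrane protein with a GOLD domain and a seven-pass fold, described in vascular smooth muscle and as a partner of TGF-beta signalling. Myo1f encodes an unconventional class I myosin of immune cells that ties the cell membrane to actin. Stx4a encodes syntaxin 4, a SNARE protein of the plasma membrane at which vesicles fuse. Pgpep1 encodes a cytosolic peptidase that removes pyroglutamate from the amino terminus of peptides. Neil1 encodes a DNA glycosylase that starts base excision repair of oxidised bases. Ndrg3 encodes a member of the N-myc downstream-regulated family, known as a lactate-binding protein in the response to low oxygen.

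In the GENCODE M21 annotation of the mouse genome (GRCm38), the genes lie on 6 chromosomes. Nron spans chr2:33805816-33813591 on the plus strand, inside the span of Mvb12b on the minus strand, with no shared exon bases. Mvb12b, listed under the older name Fam125b, had normalised read counts of 527 ± 237 in thymus pools, 594 ± 267 in adipose pools and 690 ± 580 in arch pools (SD, n = 4). Ndrg3 lies on the same chromosome at chr2:156927345-156992056 (minus strand). Gpr180 lies at chr14:118137158-118163261 (plus), Myo1f at chr17:33555707-33607764 (plus) and Stx4a at chr7:127824294-127849019 (plus). The sources used here do not say whether reads were counted by strand. Pgpep1 lies at chr8:70646435-70660388 (minus) and Neil1 at chr9:57142800-57148305 (minus).

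The promoter sequences of 4 of the genes are shown because they span the range from complete loss (Myo1f) to a reduction shared by all arch pools (Ndrg3). Each line holds the 250 bases before the RefSeq transcription start (GRCm38.p6), 5′ to 3′ on the strand of the gene. The windows are chr2:33805566-33805815 (plus strand) for Nron, chr14:118136877-118137126 (plus) for Gpr180, chr17:33555457-33555706 (plus) for Myo1f and chr2:156992112-156992361 (minus) for the first of 2 Ndrg3 starts. Capitals mark matches, on either strand, to the motifs listed after the sequences.
Nron: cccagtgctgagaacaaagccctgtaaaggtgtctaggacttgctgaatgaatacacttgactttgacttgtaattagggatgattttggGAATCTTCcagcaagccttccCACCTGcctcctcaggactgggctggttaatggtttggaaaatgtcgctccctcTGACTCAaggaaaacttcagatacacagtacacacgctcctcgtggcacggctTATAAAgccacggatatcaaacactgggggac
Gpr180: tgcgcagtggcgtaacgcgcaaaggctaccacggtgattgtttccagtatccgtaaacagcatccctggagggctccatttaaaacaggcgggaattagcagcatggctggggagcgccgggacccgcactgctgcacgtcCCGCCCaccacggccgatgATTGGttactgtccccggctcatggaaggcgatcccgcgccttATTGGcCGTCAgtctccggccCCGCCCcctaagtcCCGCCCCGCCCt
Myo1f: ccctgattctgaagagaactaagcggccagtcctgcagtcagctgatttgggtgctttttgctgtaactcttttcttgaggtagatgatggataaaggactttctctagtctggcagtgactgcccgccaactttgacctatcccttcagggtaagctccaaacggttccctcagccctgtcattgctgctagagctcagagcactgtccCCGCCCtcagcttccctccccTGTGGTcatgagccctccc
Ndrg3: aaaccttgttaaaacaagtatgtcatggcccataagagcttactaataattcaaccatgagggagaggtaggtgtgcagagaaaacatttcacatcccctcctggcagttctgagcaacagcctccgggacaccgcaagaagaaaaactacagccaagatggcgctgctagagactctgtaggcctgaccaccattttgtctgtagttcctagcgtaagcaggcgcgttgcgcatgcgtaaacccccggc

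The motifs were the GC box (GGGCGG), the CCAAT box (CCAAT), the TATA box (TATAAA), ETS (CCGGAA), Runx (TGTGGT), the E box (CAGGTG), AP-1 (TGANTCA), the heat shock element (GAANNTTC) and the core of the cyclic AMP response element (TGACG). The Nron window held a TATA box, an AP-1 match, an E box and a heat shock element. Of 32851 mouse promoter windows of the same length, 12.4%, 6.75%, 17.2% and 6.69% held these motifs. The Gpr180 window held 4 GC boxes, of which the last pair overlap, 2 CCAAT boxes and 1 TGACG. The Myo1f window held a GC box and a Runx match, and the first Ndrg3 window held no listed motif. Across all 8 windows of the 7 genes, the GC box was found in 5 (32.7% of all windows), TGACG in 3 (17.8%), CCAAT in 2 (33.8%), ETS in 2 (12%) and Runx in 2 (14%). The TATA box and the E box were also found in 2 each (12.4% and 17.2%). AP-1 and the heat shock element were found in 1 each (6.75% and 6.69%). No motif was found in all 8 windows. CpG dinucleotides numbered 4 for Myo1f, 5 for Nron, 9 and 30 for the first and second Ndrg3 starts, 12 for Neil1, 19 for Pgpep1 and 23 for both Gpr180 and Stx4a. The median over all windows was 6, so 6 of the 8 windows lay above it.

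**Figure D1:**
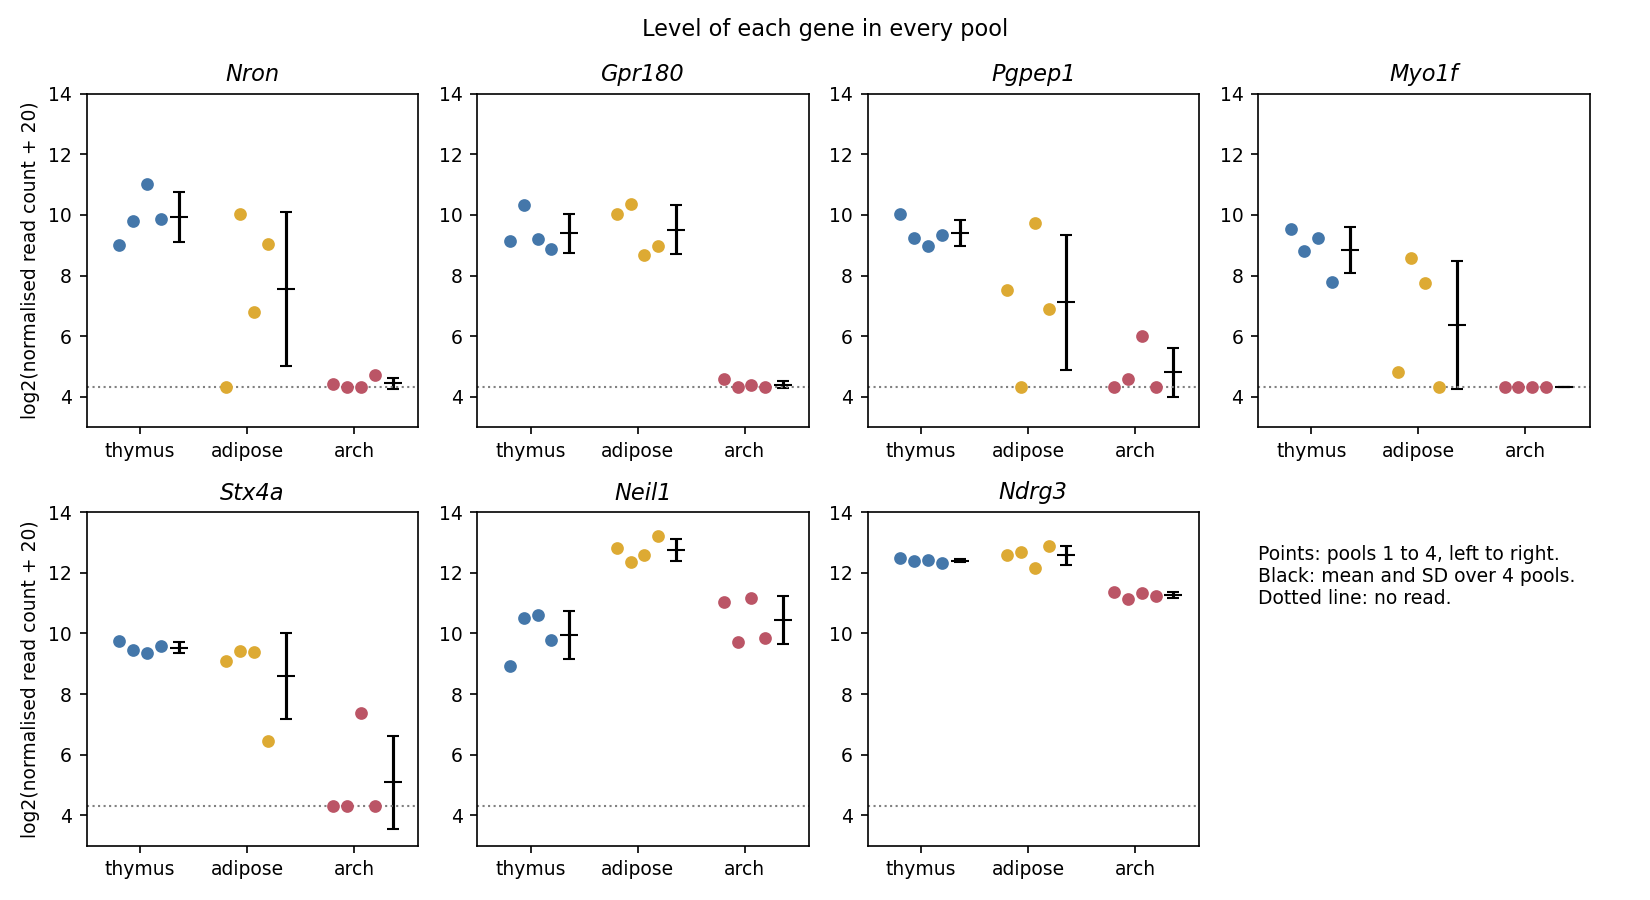
Level of the 7 genes in every pool, as log2(normalised read count + 20) on the vertical axis, with thymus, adipose and arch pools 1 to 4 from left to right; black bars are the mean and SD over 4 pools, and the dotted line is the value of a pool with no read. Nron, Gpr180 and Myo1f sat on or near the dotted line in all 4 arch pools, Pgpep1 and Stx4a in all but arch pool 3, while Neil1 and Ndrg3 stayed far above it.

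Nron, the NFAT repressor RNA, had normalised read counts of 491, 875, 2059.6 and 917 in thymus pools 1 to 4. Its counts were 0, 1014, 90.2 and 508 in adipose pools 1 to 4, and 1.63, 0, 0 and 6.22 in arch pools 1 to 4. All thymus pools were above all arch pools, whereas the adipose pools were split: pools 2 and 4 were in the thymus range, pool 3 was below it and pool 1 had no read. The arch values rest on 6 reads in all, against 4564 in thymus and 1507 in adipose tissue. The arch mean (1.96 ± 2.94, SD, n = 4) was 553-fold lower than the thymus mean (1086 ± 677), with an exact 95% Poisson interval of 254 to 1510 that covers counting error only. On the log2(count + 20) scale used for all fits, which understates changes of low genes, arch differed from thymus by -5.48 ± 1.15 (SE), the lowest value of all tested genes. In such bulk samples, fewer cells with a transcript and less transcript per cell cannot be told apart.

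Gpr180, the seven-pass membrane protein, was present in every thymus and adipose pool. Its normalised read counts were 549, 1273, 568 and 447 in thymus pools and 1033, 1284, 392 and 484 in adipose pools. In arch they were 4.07, 0, 0.808 and 0, or 6 reads in all, so the arch pools lay below all 8 other pools. The arch mean of 1.22 ± 1.94 was 581-fold lower than the thymus mean of 709 ± 379.7 (interval 267 to 1580) and 654-fold lower than the adipose mean of 798 ± 430.1 (301 to 1780; SD, n = 4). On the log2 scale the differences were -4.99 ± 0.89 from thymus and -5.11 ± 0.89 from adipose tissue (SE), the latter the lowest of all tested genes.

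Myo1f, the immune-cell myosin, had no read in any arch pool. Normalised read counts in thymus were 725, 431, 584 and 202, and in adipose tissue 8.14, 362, 197 and 0. The adipose pools thus ranged from none to the level of thymus. Against a floor of 3 reads in each arch pool, arch was at least 127-fold lower than thymus (485 ± 224) and at least 37.2-fold lower than adipose tissue (142 ± 173; SD, n = 4). The log2 differences, -4.53 ± 1.07 from thymus and -2.05 ± 1.07 from adipose tissue (SE), depend on the pseudocount and are no bound. Arch and adipose pools met at 0 for this gene.

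Pgpep1, the pyroglutamyl peptidase, had normalised read counts of 1017, 587, 488 and 632 in thymus. Adipose pools had 162, 0, 824 and 98.8, and arch pools 0, 3.80, 44.4 and 0. Of its 57 arch reads, 96.5% came from arch pool 3. The arch mean of 12.1 ± 21.6 was 56.5-fold lower than that of thymus (681 ± 232; SD, n = 4). Without arch pool 3 only 2 reads were left, and the ratio was 537-fold lower (exact 95% Poisson interval 149 to 4430, counting error only). The log2 difference from thymus was -4.59 ± 1.11 and that from adipose tissue (271 ± 375), with overlapping pools, was -2.30 ± 1.11 (SE).

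Stx4a, the plasma membrane syntaxin, was the steadiest of the 5 lost genes in thymus, with normalised read counts of 837, 681, 629 and 747. Adipose pools 1 to 3 were in or just below that range at 521, 662 and 642, and adipose pool 4 stood apart at 68.1. Arch pools 1, 2 and 4 had no read, and all 181 arch reads came from arch pool 3 (146). With that pool, the arch mean (36.5 ± 73.1) was 19.8-fold lower than the thymus mean (724 ± 89.5; SD, n = 4). Without it, arch was at least 169-fold lower, by the floor of 3 reads per pool. The log2 difference was -4.45 ± 1.03 from thymus and -3.50 ± 1.03 from adipose tissue (473 ± 277), whose lowest pool lay below arch pool 3 (SE).

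Ndrg3, the lactate-binding family member, was the one gene of the 7 that was reduced evenly. Its normalised read counts were 5684, 5355, 5395 and 5117 in thymus, 6090.5, 6529, 4532 and 7493 in adipose pools, and 2586, 2245, 2574 and 2380.4 in arch. Every arch pool lay below every other pool. The coefficient of variation was 6.70% in arch and 4.31% in thymus, against 20% in adipose tissue. The arch mean of 2446 ± 164 was 2.20-fold lower than that of thymus (5388 ± 232) and 2.52-fold lower than that of adipose tissue (6161 ± 1234; SD, n = 4). The log2 differences were -1.13 ± 0.24 and -1.30 ± 0.24 (SE). These values rest on at least 1180 reads per pool.

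Neil1, the DNA glycosylase, was set apart by its high level in adipose tissue. Its normalised read counts were 462, 1434, 1553 and 855 in thymus, 7156, 5173, 6177 and 9459 in adipose pools, and 2091, 812, 2291 and 891 in arch. All adipose pools were above all others, and thymus and arch pools overlapped. Arch (1521 ± 778) was 4.60-fold lower than adipose tissue (6991 ± 1834) and 1.41-fold higher than thymus (1076 ± 510.3; SD, n = 4). The log2 differences of arch were -2.30 ± 0.45 from adipose tissue and 0.48 ± 0.45 from thymus (SE). Within arch, pools 1 and 3 averaged 2191 and pools 2 and 4 averaged 852. Pools 2 and 4 had the fewest reads per library of the arch pools. With thymus pool 3 they are the 3 shallow pools, those with the fewest reads per library in the study. Arch pool 4 had the highest fibroblast marker sum of the arch pools, but the lowest smooth muscle, macrophage and B cell sums. Arch pool 2 had the highest smooth muscle, macrophage and B cell sums of the arch pools. Without the 3 shallow pools, the log2 difference of arch was 1.38 from thymus and -1.63 from adipose tissue.

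**Figure D2:**
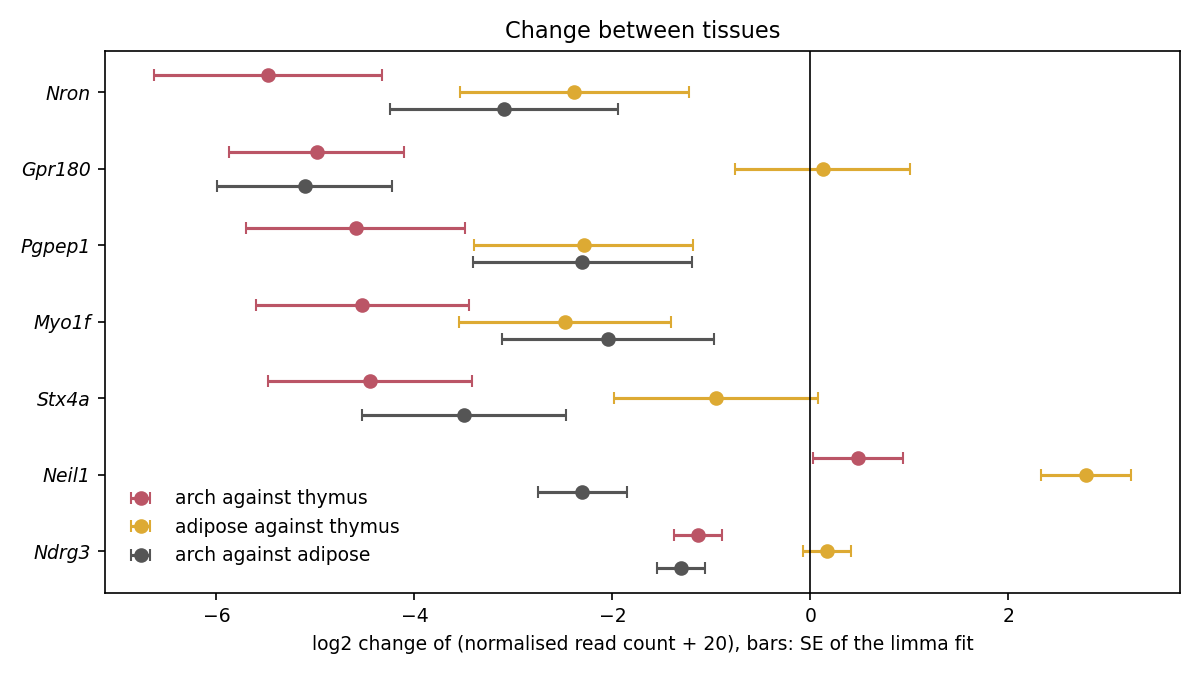
Difference between tissues for each of the 7 genes on the horizontal axis, in log2 of (normalised read count + 20), with bars for the SE of the limma fit. The arch differences (red against thymus, grey against adipose) chose the genes and are a description. The adipose against thymus differences (yellow) used no arch pool, and Neil1 at 2.79 is the one far from 0 relative to its SE. High adipose values may have placed Neil1 among the 7 genes.

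Among all tested genes, the 5 lost genes ranked 1 (Nron), 4 (Gpr180), 7 (Pgpep1), 8 (Myo1f) and 9 (Stx4a) from the lowest log2 difference of arch against thymus. The other genes among the lowest 15 were Tyk2 (-5.24), Slc39a6 (-5.05), Art1 (-4.74), Abhd15 (-4.68), Chst10 (-4.39), Elovl6 (-4.35), Pars2, Slfn8 and Ccdc53 (-4.34 each) and Tbc1d7 (-4.32). limma called 6 of the 7 genes lower in arch than in thymus, and none higher, at a Benjamini-Hochberg adjusted p under 0.05. Of all tested genes 6.57% were called in either direction and 2.58% lower, but since this contrast chose the genes nothing is read from the count. With pool values that do not overlap and arch lower there were 6 of 7, against 6.64% of all tested genes. edgeR on the recovered reads called 4 of the 7 lower, and 87 of the 9106 genes it tested. DESeq2 called 5 of the 7 lower, and 500 of 10651 tested genes. edgeR did not call Pgpep1 or Stx4a, and DESeq2 gave Stx4a no adjusted p. limma called 5 or 6 in each fit without 1 pool (the Pgpep1 call was lost without thymus pool 1), 3 without arch pools 2 and 4 and adipose pool 1 (Gpr180, Ndrg3 and Nron) and 1, Gpr180, without the 3 shallow pools. The median log2 difference of the 7 was -4.53, and that of all tested genes -0.20.

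Between arch and adipose tissue limma called 3 of the 7 genes, Gpr180, Neil1 and Ndrg3, all lower in arch. Over all tested genes 0.176% were called in either direction and 0.0769% (7 genes) lower, and this contrast too chose the genes. The call of all 3 was kept without thymus pool 1, 2 or 3; without each other pool in turn between 0 and 2 were called, and 0 without adipose pool 1, 2 or 4 or arch pool 2. None was called without arch pools 2 and 4, whichever of thymus pool 3 and adipose pool 1 was left out with them. limma called 0 of the 7 without the filter on low values, 1 (Neil1) with only these tissues in the fit and 2 (Gpr180 and Ndrg3) with a pseudocount of 5. edgeR called the same 2 lower, and 4 of the 9106 genes it tested. DESeq2 called 5 of the 7 lower, and 178 of 11155 tested genes. The same 3 had pools that did not overlap, against 2.89% of all tested genes. The log2 difference was negative for all 7, with a median of -2.30 against -0.17 over all tested genes. For Nron, Pgpep1, Myo1f and Stx4a the lowest adipose pool reached down to 0 or to 68.1, into the range of arch.

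**Figure D3:**
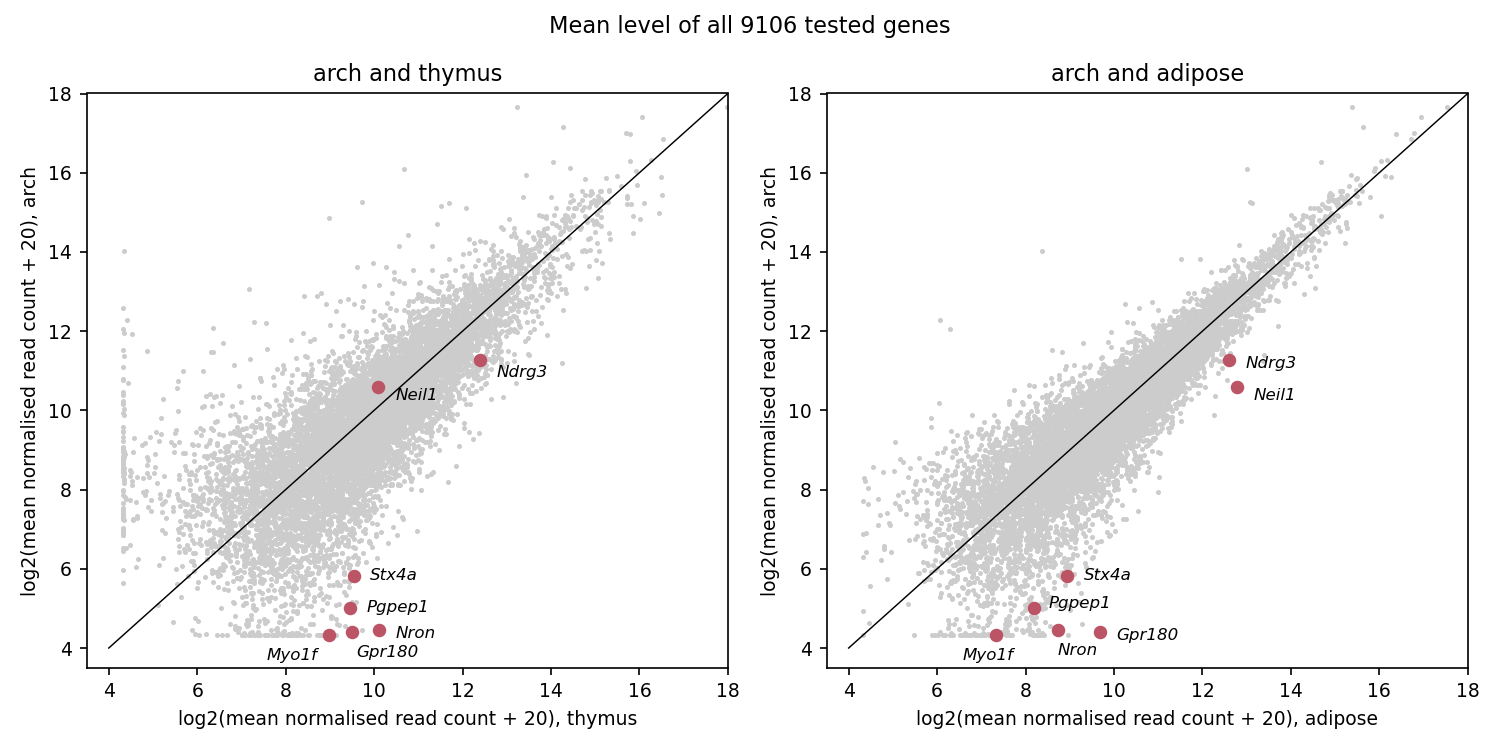
Mean level of all 9106 tested genes (grey), as log2(mean normalised read count + 20), in arch on the vertical axis against thymus (left) and adipose tissue (right) on the horizontal axis; red points are the 7 genes and the line marks equal levels. The 5 lost genes lie at the bottom edge among genes of similar thymus level, Ndrg3 lies below the line in both panels, and Neil1 lies below it only against adipose tissue.

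The adipose against thymus difference used no arch pool. It still shares its pools with the contrasts that chose the genes, so it is no independent support for them. Neil1 was low in arch only against adipose tissue, so its high adipose values may have placed it among the 7 genes. The test of Neil1 below is therefore not independent of that choice. Neil1 rose in adipose tissue, 6.50-fold by the ratio of means and by 2.79 ± 0.45 on the log2 scale, with all 4 adipose pools above all 4 thymus pools (limma, adjusted p = 0.000946 over all tested genes). The call held in all 12 fits that left out 1 pool. It also held with edgeR on the recovered reads (adjusted p = 0.00372). Without arch pools 2 and 4 and adipose pool 1, each highest for some of the other cell type markers, it held too (limma adjusted p = 0.00163). This was 1 of 7 genes, and 2.84% of all tested genes were called in this comparison.

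The other 6 genes did not pass the test between adipose tissue and thymus. In limma their log2 differences were -2.48 ± 1.07 for Myo1f (adjusted p = 0.331), -2.38 ± 1.15 for Nron (adjusted p = 0.400), -2.29 ± 1.11 for Pgpep1 (adjusted p = 0.399) and -0.95 ± 1.03 for Stx4a (adjusted p = 0.803). The limma differences of Gpr180 and Ndrg3 were 0.12 ± 0.89 (adjusted p = 0.981) and 0.17 ± 0.24 (adjusted p = 0.864). None of the 7 was called lower by limma or edgeR, nor by DESeq2 among the 6 it tested (all but Stx4a). At limma's unadjusted p under 0.05, 1 of the 7 was lower. The share of all tested genes at that threshold is not given here, so nothing is read from this count. Adipose pools of Nron, Myo1f and Pgpep1 ran from 0 to the thymus level. A difference of several fold for these 3 genes was not detectable with 4 pools of such spread. For Gpr180 and Ndrg3 the adipose mean was 1.13-fold and 1.14-fold that of thymus.

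Pools without a read were frequent in arch at the level of the 5 lost genes. Of 2209 tested genes with a thymus mean between 485 and 1086, the range of those 5, 26.5% had at least 1 arch pool without a read, against 9.33% for adipose tissue and 6.61% for thymus. Choosing genes by their thymus mean itself keeps thymus zeros few. Of 1972 genes with an arch mean in that range, the shares were 16.1% for arch, 12.1% for thymus and 7.61% for adipose tissue. At least 2 arch pools lacked reads in 7.20% of the 2209 genes chosen by thymus level, and all 4 in 0.0905%. Nron, Gpr180 and Pgpep1 had 2 arch pools without a read, Stx4a had 3 and Myo1f had 4. By pool, the share of the 2209 genes without a read was 4.57%, 12.6%, 1.49% and 16.4% in arch pools 1 to 4. Arch pool 3, which had the lowest share, was the one with Stx4a and most Pgpep1 reads but had no read of Nron or Myo1f and 1 of Gpr180. In adipose pool 2, the only pool with 1 library, the share was 7.02%. This pool lacked Pgpep1 but held Nron and Myo1f at the level of thymus.

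**Figure D4:**
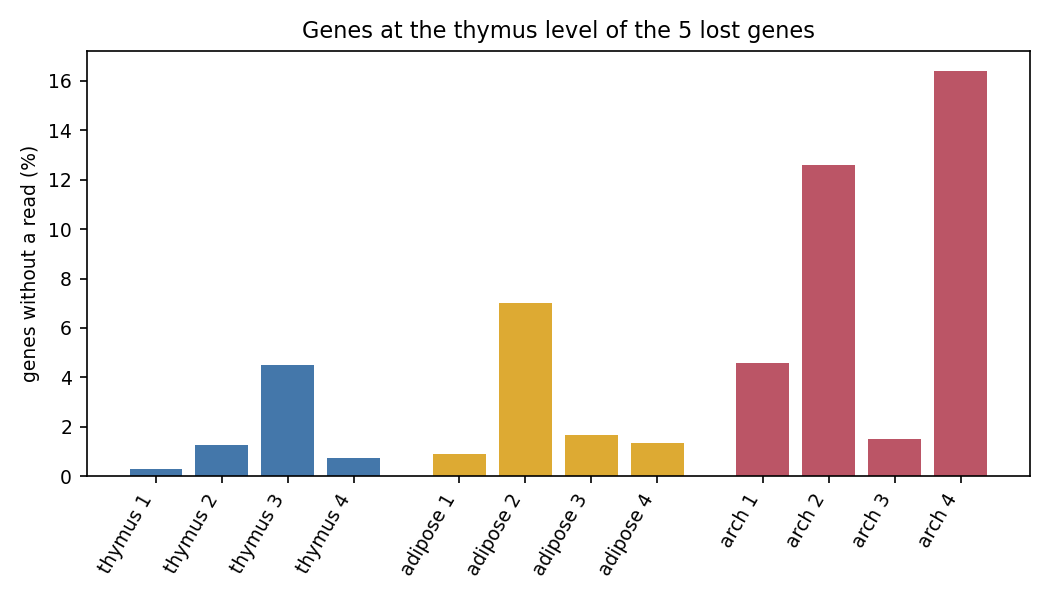
Share of genes without a read in each pool (vertical axis, percent), for the 2209 tested genes whose thymus mean lies in the range of the 5 lost genes; bars are the 12 pools. The share was highest in arch pools 2 and 4, at 12.6% and 16.4%, and was 1.49% in arch pool 3.

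Levels of different genes were set side by side per kilobase of annotated exon, with the exons of all transcripts joined (GENCODE M21). The annotation used for counting is not known and coverage along transcripts was not examined, so the order of close values is uncertain. In thymus the mean normalised read count per kilobase was 642 for Ndrg3, 575 for Neil1, 378 for Gpr180, 306 for Stx4a, 297 for Nron, 128 for Pgpep1 and 97.7 for Myo1f. In arch it was 813 for Neil1 and 292 for Ndrg3, and between 0 and 15.5 for the other 5. By this measure Neil1 had the highest level of the 7 in both arch and adipose tissue (3737). In thymus it was Ndrg3, with Neil1 close to it.

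Across the 12 pools the genes varied together to different degrees. Pearson's correlation of log2(count + 20) was 0.95 between Gpr180 and Ndrg3, 0.85 between Gpr180 and Stx4a, 0.82 between Nron and Myo1f and 0.81 between Myo1f and Stx4a. With Neil1 the correlations of the other genes ran from -0.24 (Myo1f) to 0.43 (Ndrg3). All 12 points share the 3 tissues, so these values describe the tissue pattern as much as the genes, and no p is given.

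The genes outside the group whose pattern over the 12 pools was most like that of a member were found the same way. For Nron they were Fam33a (r = 0.93), AI467606 (0.93) and Pdss2 (0.92), and for Gpr180 Zfp518a (0.93), Rbks (0.92) and Fcho1 (0.92). Fcho1 was also closest to Ndrg3 (0.92), followed by Atpaf1 and Athl1 (0.91 each). Myo1f was most like Zfp422 (0.93), Ppm1h (0.90) and Art1 (0.89), Pgpep1 like Arhgap33 (0.91), Mettl16 (0.90) and Nek8 (0.89), and Stx4a like Pigh (0.96), Elovl6 and Fam3a (0.95 each). Neil1 was most like Dgat1 (0.95), which encodes an enzyme of triglyceride synthesis. Dgat1 had mean normalised read counts of 1209 in thymus, 10491 in adipose pools and 2426 in arch. The next were Rnf19b (0.91) and Selplg (0.89), the latter the gene of the P-selectin ligand PSGL-1, with means of 15026, 67541 and 30462.

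The pathways and families of the 7 genes were followed in 8 lists of 197 further genes, of which 149 were tested. In arch against thymus limma called 5 of them higher and 5 lower, or 6.71%, near the 6.57% of all tested genes. edgeR called 4 of these 10: Metap2, Tpp2, Stx5a and Rnpepl1. Without the 3 shallow pools 1 of the 10 calls was kept (Metap2), and without arch pools 2 and 4 and adipose pool 1 there were 4 (Metap2, Rnpepl1, Stx5a and Stx6). The median log2 difference of the 149 was -0.42 against -0.20 over all tested genes. In adipose tissue against thymus 1 was higher and 2 were lower (2.01%, against 2.84% of all). Between arch and adipose tissue limma and edgeR called 0 of the 149 and DESeq2 called 2, with 17 at limma's unadjusted p under 0.05. Counts at an unadjusted p, here and for the lists below, are given without the share of all tested genes. They cannot be set against it.

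Of the proteins that act with Nron, the NFAT factors, calcineurin, the kinases and the transport factors of the complex, limma called 0 of 26 tested between arch and thymus, with 5 at an unadjusted p under 0.05. edgeR called 0 and DESeq2 called 1. Nfatc3, one of the NFAT factors, fell in adipose tissue against thymus, from a normalised read count of 3728 ± 844 to 1452 ± 217 (SD, n = 4; log2 difference -1.33 ± 0.33, limma adjusted p = 0.0293). It had 2360.2 ± 464 in arch. The Nfatc3 call held in 7 of 12 fits without 1 pool; it was lost without thymus pool 1, 3 or 4 or adipose pool 3 or 4.

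Of the 11 tested myosin genes besides Myo1f, 1 was called in arch against thymus: Myo1g, the other haematopoietic class I myosin, fell. It had 2458 ± 305 in thymus, 1594 ± 838 in adipose and 584 ± 528 in arch pools (SD, n = 4), a log2 difference of -2.78 ± 0.79 (limma adjusted p = 0.0409). That call held in 5 of 12 fits without 1 pool; it was lost without any 1 thymus pool, adipose pool 1 or 4, or arch pool 2. The log2 difference was negative for 90.9% of the myosin genes, against 57.3% of all tested genes. Myo1c had 674 ± 194, 249 ± 257 and 149 ± 156 in thymus, adipose tissue and arch and did not pass. Myo1e was not tested, with means of 0.142, 269 and 36.1.

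Of 35 tested SNARE genes besides Stx4a, Stx5a and Snap23 rose and Stx6 fell in arch against thymus. Stx5a, the syntaxin of the Golgi, went from 3448 ± 240.3 to 8965 ± 2524 (log2 1.33 ± 0.27, limma adjusted p = 0.00474), a call kept in all 12 fits without 1 pool but not without thymus pool 3 and arch pools 2 and 4 together (0.0882). Snap23, a partner of syntaxin 4 at the plasma membrane, went from 2753 ± 1153 to 5818 ± 679 (1.17 ± 0.31, limma adjusted p = 0.0282). The Snap23 call held in 9 of 12 fits, being lost without thymus pool 2 or 4 or arch pool 3, and also without the 3 shallow pools (limma adjusted p = 0.0540) or without arch pools 2 and 4 and adipose pool 1 (adjusted p = 0.103). Stx6, an endosomal syntaxin, had 9196 ± 2115 in thymus, 4022 ± 1732 in adipose and 4242 ± 779 in arch pools (SD, n = 4). It fell in arch (-1.10 ± 0.32, limma adjusted p = 0.0439) and in adipose tissue (-1.28 ± 0.32, adjusted p = 0.0306). These calls held in 5 and 7 of 12 fits without 1 pool. Both were lost without thymus pool 1, 3 or 4, the arch call also without adipose pool 3 or arch pool 1, 2 or 3, and the adipose call also without adipose pool 1 or 2. The other plasma membrane syntaxins Stx2, Stx3 and Stx11 did not pass; Stx11 had 0 in thymus, 193 ± 133 in adipose and 676 ± 910 in arch pools.

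Base excision repair genes besides Neil1 gave 1 call of 21 in arch against thymus. Mpg, the alkyladenine DNA glycosylase, fell from 717 ± 292 to 102 ± 202 (SD, n = 4; log2 difference -3.98 ± 1.15, limma adjusted p = 0.0449). The Mpg call held in 3 of 12 fits without 1 pool, those without adipose pool 2 or 3 or arch pool 3. None of the 21 was called in adipose tissue against thymus by limma, edgeR or DESeq2, and 0 had an unadjusted p under 0.05, whereas Neil1 rose there. Its paralog Neil3 had 746 ± 177 in thymus, 497 ± 545 in adipose and 532 ± 730 in arch pools and did not pass. Neil2 was not analysed here.

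The exopeptidases listed with Pgpep1 had the most calls, 2 higher and 2 lower of 28 in arch against thymus (14.3%). Metap2, the aminopeptidase that removes initiator methionine, rose in both tissues, from 7716 ± 425 in thymus to 23461 ± 2076 in adipose and 24246 ± 4814 in arch pools (SD, n = 4). The log2 differences were 1.60 ± 0.18 (limma adjusted p = 1.44e-05) and 1.63 ± 0.18 (adjusted p = 8.66e-06), and both held in all 12 fits without 1 pool. Tpp2, the giant tripeptidyl peptidase, rose from 2006 ± 336 to 5824 ± 2265 in arch (1.47 ± 0.31, limma adjusted p = 0.00613), also in all 12. It did not pass without thymus pool 3 and arch pools 2 and 4 (0.115) or without arch pools 2 and 4 and adipose pool 1 (0.0659). Rnpepl1, an aminopeptidase, fell from 2058 ± 515 to 326 ± 259 (-2.94 ± 0.64, limma adjusted p = 0.00821; 12 of 12 fits), though not without the 3 shallow pools (0.0508). Apeh, the acylaminoacyl peptidase, fell from 1343 ± 511 to 259 ± 327 (-3.66 ± 1.06, limma adjusted p = 0.0465) in the fit of all pools, in the one without arch pool 1 and in the one without arch pool 3, and in none of the other 10.

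The GOLD-domain membrane genes related to Gpr180 gave 0 calls of 6 in arch against thymus with limma and edgeR and 1 with DESeq2 (1 at limma's unadjusted p under 0.05). Of 20 tested TGF-beta signalling genes, Skil, a repressor of SMAD transcription factors, rose in arch. Its normalised read count went from 536 ± 279 in thymus to 2159 ± 852 in arch (SD, n = 4; 2.11 ± 0.59, limma adjusted p = 0.0394). That call held in 5 of 12 fits without 1 pool and was lost without thymus pool 2 or 4, adipose pool 1 or 3, or arch pool 2, 3 or 4. It was also lost without the 3 shallow pools (limma adjusted p = 0.190) or without arch pools 2 and 4 and adipose pool 1 (adjusted p = 0.277). Ndrg1 and Ndrg2, the paralogs of Ndrg3 that could be tested, gave 0 calls with limma, edgeR or DESeq2 and none at an unadjusted p under 0.05. Ndrg1 had 446 ± 409, 796 ± 526 and 398 ± 444 in thymus, adipose tissue and arch, and Ndrg2 had 377 ± 153, 493 ± 342 and 578 ± 485 (SD, n = 4).

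**Figure D5:**
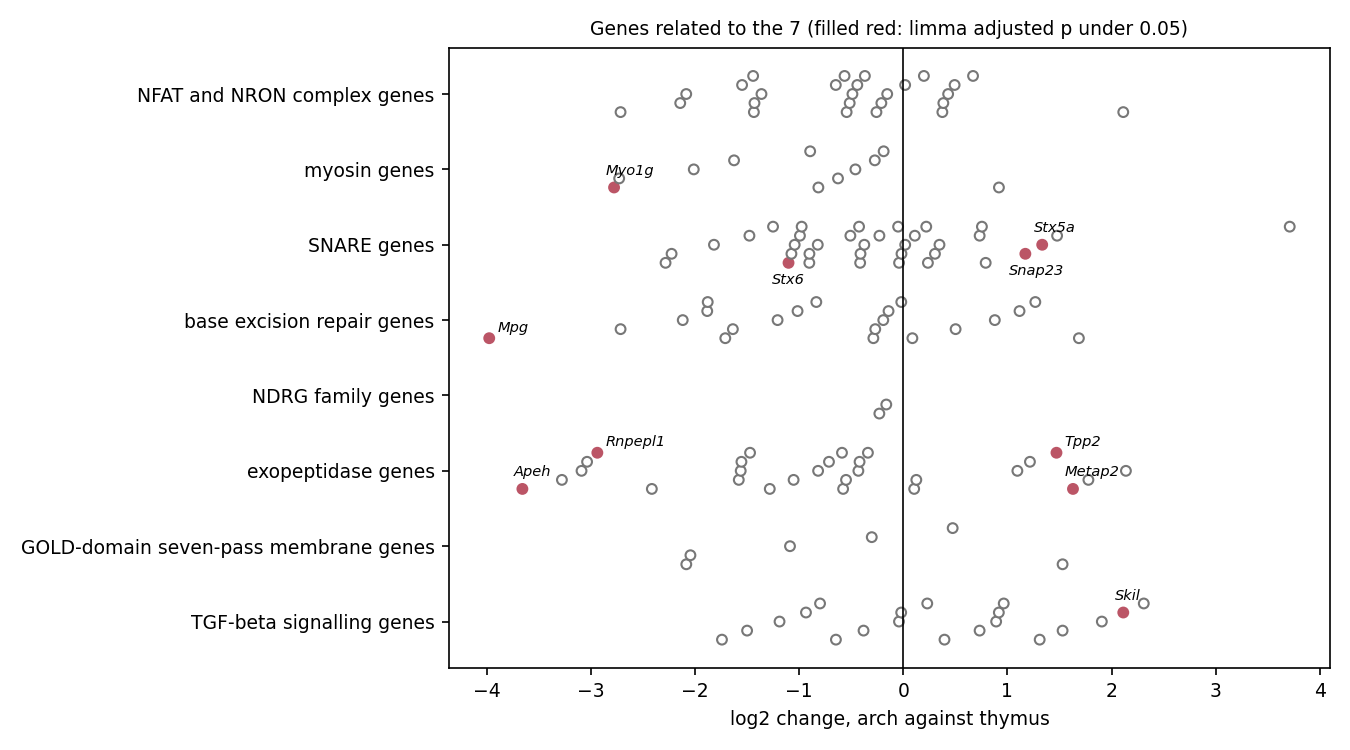
Log2 difference of arch against thymus (horizontal axis) for the 149 tested genes of the 8 lists related to the 7 genes, 1 point per gene and list; filled red points were called by limma at an adjusted p under 0.05. The calls fall on both sides of 0, with 5 higher and 5 lower.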

How the data were processed

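Per the submitters' processing notes, FastQC 0.11.5 and STAR 2.6.0c were used with the mouse build GRCm38. The sources used here do not say how reads were assigned to genes. The authors deposited 1 table with a normalised signal per gene for 12 pools, and the 1 to 3 libraries of each pool were already joined in it. Within each pool all values were whole multiples (within 0.01) of the value of 1 read, and these recovered reads are used for depth and for count tests. The deposited signal is called the normalised read count.

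Genes with at least 100 in at least 4 pools (9106 genes, 98.1% to 99.6% of each pool's total) were tested with limma 3.58.1 (R 4.3.3, intensity trend) on log2(signal + 20). All 12 pools entered 1 fit with tissue as the only term, and a call means an adjusted p (Benjamini-Hochberg) under 0.05. The fit was also run on simulated counts with 1 spread setting for every gene. That setting is unlike these pools, and nothing is read from the run. Gene names follow a fixed rule: the 7 genes, called relatives (at most 4 per list and comparison) and paralogs, the 3 genes most like each member, and the lowest 15 of arch against thymus. The members, the lists and the tests were chosen with earlier results of these data known. Alternatives included edgeR 4.0.16 and DESeq2 1.42.0 on recovered reads, pseudocounts, filters, TMM scaling and pools left out. Where a gene had no read, folds are bounds against 3 reads per pool; intervals are exact at 95% and cover counting error only, since amplified reads without molecular identifiers are not independent. The p-values measure the spread between pools of 5 mice. Promoter sequences are from RefSeq (GRCm38.p6), in which all 7 genes were matched by symbol. Protein sequences were not used here.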

Additional observations from a re-analysis of the deposited data

Results flagged for a closer look

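In 3 of the 20 sets of 4 pools (a gene in a tissue) that were examined, 1 pool stood apart from the others by more than Dixon's 95% critical value for 4 values. For normally distributed values chance flags about 1 in 20 such sets. That rate does not hold for arch sets in which most pools had no read or few. A set with reads in only 1 pool, as for Stx4a in arch, is always flagged. Gpr180 had a normalised read count of 1273 in thymus pool 2, against 447 to 568 in the other thymus pools (gap of 0.854 of the range). Pgpep1 had 44.4 in arch pool 3, against 0 to 3.80 in the other arch pools (0.914). Stx4a had 146 in arch pool 3, against 0 in the other 3 (1.0). Arch pool 3, where Pgpep1 and Stx4a stood apart, had the smallest share of genes without a read among the arch pools.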

How the results depend on the processing

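No difference of the 7 genes that limma had called changed sign under the 22 alternatives. Apart from Neil1 in adipose tissue against thymus, these differences involve arch, whose values chose the genes. The alternatives reuse the same pools, so nothing is read from the kept signs. Neil1 in adipose tissue against thymus kept its call in each of the 22 alternatives (log2 difference 2.44 to 3.01). The Gpr180 difference between adipose tissue and thymus, 0.12 and not called, kept its sign in 18 of 22. With a pseudocount of 5 the arch against thymus differences were -7.18 for Nron, -6.76 for Gpr180, -6.47 for Myo1f and -5.95 for Stx4a. The median difference over all tested genes in that comparison was -0.20 as deposited, -0.18 with TMM scaling and -0.06 with edgeR.

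Counts of called genes moved more; the cause was not tested. In arch against thymus (598 called) edgeR called 365, DESeq2 1269, the fit without thymus pool 3 and arch pools 2 and 4 318, that without arch pools 2 and 4 and adipose pool 1 354, and fits without 1 pool 405 to 623. In adipose tissue against thymus (259) DESeq2 called 701 and fits without 1 pool 169 to 320. In arch against adipose tissue (16) the counts were 9 with a pseudocount of 5, 2 without a filter, 8 with edgeR, 300 with DESeq2, 0 without the 3 shallow pools, 0 without arch pools 2 and 4 and adipose pool 1, and 2 to 18 without 1 pool.

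Of the 149 related genes, 10 were called in arch against thymus; this was 4 without a filter, 4 with edgeR, 5 with only the tissues compared, 2 without the 3 shallow pools, 6 without arch pools 2 and 4 and adipose pool 1, and 4 to 12 without 1 pool. In adipose tissue against thymus 3 were called, 11 with DESeq2 and 1 to 4 without 1 pool. In arch against adipose tissue 0 were called, 2 with DESeq2.

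Whether equal pool numbers mark the same mice could not be told from the values. Deviations of same-numbered pools correlated at -0.0316 to 0.0756. Of 12 pools, 5 correlated best with a pool of their own number in another tissue, and no chance value was computed for this count. With the pool number as a replicate block the counts were 608, 243 and 12, and 9, 2 and 0 for the related genes. With the block, limma called 1 of the 7 genes (Gpr180) in arch against adipose tissue. At most 6 reads stand behind the arch values of Nron, Gpr180 and Myo1f, and those of Pgpep1 (57 reads) and Stx4a (181) rest on arch pool 3.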

Other observations

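Of the 7 genes that limma called lower in arch than in adipose tissue, 4 are not among the 7 genes described here: Dgat1 (log2 difference -2.14, adjusted p = 0.0236), Bambi-ps1 (-1.93, 0.0361), Txk (-1.57, 0.0260) and Selplg (-1.17, 0.0277). They were looked at after their values were seen, and no gene was called in this comparison by limma without thymus pool 3 and arch pools 2 and 4. Dgat1 and Selplg were also among the 3 genes most like Neil1 over the 12 pools. Txk encodes a Tec-family kinase of T cells.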
